A study of Danio rerio with 11 samples.

Results

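The 2 genes described here are the zebrafish palmitoyl-protein thioesterase 2 genes ENSDARG00000014208 (ppt2a.3) and ENSDARG00000093176. They are 2 of the 32520 genes counted in each of the 11 libraries of the series. Both were chosen by the immunoprecipitation data themselves. In the comparison of eIF4E1b RIP with eIF4E1c RIP they held ranks 3 and 5 by p among the 637 genes called higher in eIF4E1c RIP. Their difference between the RIP groups is therefore a description and carries no test. Only their levels in the input libraries, which did not enter that comparison, were tested. The genes were chosen with earlier results of these data known, so the input tests may not be independent of the choice either.

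The study asked which mRNAs are bound by eIF4E1b, a cap-binding protein of the germline and early embryo, as opposed to eIF4E1c, another protein of the eIF4E family. RNA immunoprecipitation (RIP) with anti-GFP beads was performed on lysates of 8-cell zebrafish embryos from the lines tg(actb2:3xflag-sfGFP-eIF4E1b) and tg(actb2:3xflag-sfGFP-eIF4E1c), and RNA of the lysate itself served as input. RIP libraries numbered 3 for eIF4E1b and 2 for eIF4E1c, and input libraries 3 for each line. Both lines carried Tol2 insertions with the ubiquitous actb2 promoter, with no mutation of the genes themselves stated in the labels, and no precipitation from untagged embryos was analysed here, so non-specific binding to the beads has no measured level. RIP and input libraries were made with different kits, so that the effect of the precipitation and that of the kit cannot be told apart within a line.

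The libraries held 6943631 to 13993294 counts in total. The first eIF4E1c RIP library stood apart with the lowest total and 15114 genes with counts, against 17520 to 19591 in the other libraries. The tagged genes followed the labels in the inputs, where EIF4E1B was higher in eIF4E1b inputs (log2 fold change 1.87 ± 0.20 SE, DESeq2 adjusted p = 7.66e-17) and eif4e1c was lower there (-0.69 ± 0.15, adjusted p = 0.000169). In the RIP libraries EIF4E1B differed between the lines in the same direction (1.55 ± 0.36, adjusted p = 0.000509), whereas for eif4e1c the value was 0.30 ± 0.43 (adjusted p = 0.694). The edgeR adjusted p was 0.00359 for EIF4E1B in the inputs, 0.0279 for eif4e1c in the inputs and 0.026 for EIF4E1B in the RIP libraries. All 12 listed maternal and germ plasm transcripts had counts in every group, with summed levels of 2612 to 5976 CPM (counts per 1000000 counts of the library) per library. The 9 measured genes of tissues that form later summed to at most 5.33 CPM in any library.

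Palmitoyl-protein thioesterases are lysosomal enzymes that cleave thioester bonds to long fatty acids. PPT1 removes palmitate from cysteines of proteins during their breakdown, and its loss in humans causes the infantile form of neuronal ceroid lipofuscinosis, a lysosomal storage disease of neurons. PPT2 is a related enzyme that, in mammals, acts on palmitoyl-CoA and does not replace PPT1. At the 8-cell stage the zebrafish embryo does not yet transcribe its genome in bulk, so the RNAs measured here were largely laid down by the mother.

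Zebrafish carry several PPT2 genes. The reference name table gives ppt2a.3 for ENSDARG00000014208 and PPT2 for ENSDARG00000093176, a symbol that 2 identifiers share. RefSeq (assembly GRCz12tu, used here for names and gene order only) lists ppt2a.3 and ppt2a.4 as immediate neighbours. The second gene was matched to ppt2a.4 through a synonym alone, so this identity, and with it the neighbourhood, is less sure than that of ppt2a.3. Neighbouring genes of one family can share long identical stretches, and how reads with several matching positions were counted is not given in the sources used here, so that the division of reads between them is uncertain.

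ppt2a.3 was low in eIF4E1b RIP and high in eIF4E1c RIP. It had 22.0, 21.8 and 15.4 CPM in the eIF4E1b RIP libraries, against 212.3 and 232.1 CPM in the eIF4E1c RIP libraries. In the input libraries it had 44.7, 35.4 and 51.0 CPM in the eIF4E1b line, against 37.1, 38.6 and 58.4 CPM in the eIF4E1c line. All 3 eIF4E1b RIP values lay below every input value and both eIF4E1c RIP values lay above every input value, while the 2 input groups overlapped.

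ENSDARG00000093176 showed the same order. It had 31.5, 35.1 and 26.2 CPM in the eIF4E1b RIP libraries, against 221.1 and 305.1 CPM in the eIF4E1c RIP libraries. Its input levels were 56.7, 62.2 and 66.8 CPM in the eIF4E1b line, against 24.6, 53.2 and 45.0 CPM in the eIF4E1c line. The eIF4E1b RIP values lay below the inputs of their own line but reached into the range of the eIF4E1c inputs, whose first replicate was the lowest of all 11 libraries for this gene.

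**Figure D1:**
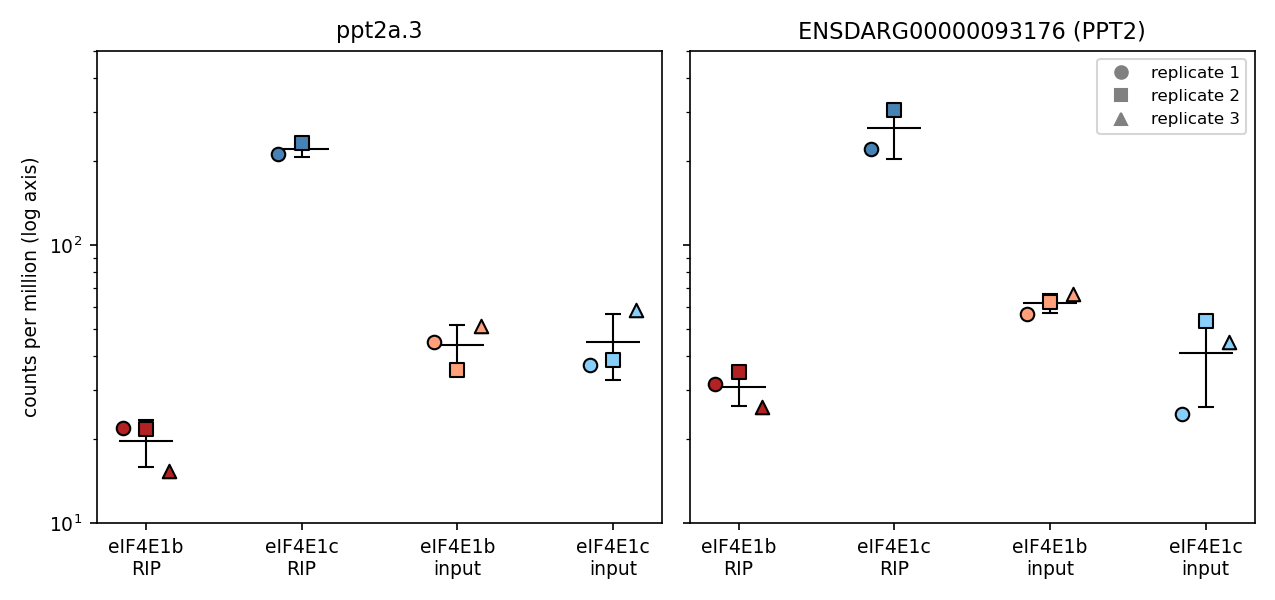
Levels of ppt2a.3 (left) and ENSDARG00000093176 (right) in CPM on a log axis, with 1 point per library, shaped by replicate number, in the 4 groups. Horizontal bars mark the group mean and whiskers the SD. The 2 eIF4E1c RIP libraries sit between 212.3 and 305.1 CPM, above all others.

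The mean level of ppt2a.3 was 19.7 ± 3.8 CPM in eIF4E1b RIP (SD, n = 3) and 222 ± 14.0 CPM in eIF4E1c RIP (SD, n = 2), a ratio of 11.3 in favour of eIF4E1c. For ENSDARG00000093176 the means were 30.9 ± 4.5 CPM (SD, n = 3) and 263 ± 59.4 CPM (SD, n = 2), a ratio of 8.51 in the same direction. On the log2 scale of the DESeq2 fit, eIF4E1b RIP over eIF4E1c RIP was -3.44 ± 0.40 (SE) for ppt2a.3 and -3.0 ± 0.38 for ENSDARG00000093176. The background of that comparison was 4.51% of 14127 genes tested called higher in eIF4E1c RIP and 3.44% called higher in eIF4E1b RIP, at an adjusted p under 0.005 (637 and 486 genes, or 581 and 280 when libraries were scaled by total counts). As the contrast chose both genes, nothing is read from their place in it. Leaving out each RIP library in turn moved the log2 value between -3.65 and -3.22 for ppt2a.3 and between -3.09 and -2.94 for ENSDARG00000093176. These ranges add no support, since the contrast chose both genes. Without either eIF4E1c RIP library, the fit had only the other library of that group.

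Set against its own input, each gene moved opposite ways in the 2 lines. The share of all genes that did so is not given here. The mean CPM ratio of RIP to input was 0.451 for ppt2a.3 and 0.499 for ENSDARG00000093176 in the eIF4E1b line. In the eIF4E1c line it was 4.97 for ppt2a.3 and 6.43 for ENSDARG00000093176. The fitted log2 values were -0.74 ± 0.26 and -0.59 ± 0.24 (SE) in the eIF4E1b line, and 2.58 ± 0.37 and 2.92 ± 0.40 in the eIF4E1c line, in that order of genes. The difference between the lines in the RIP to input ratio, which removes any effect of the kits that both lines share, was -3.29 ± 0.41 for ppt2a.3 and -3.48 ± 0.42 for ENSDARG00000093176. That difference holds the RIP contrast, and any kit effect that the lines did not share, and is again a description. Its background was 5.24% of 14194 genes called higher in the eIF4E1c line and 3.73% called higher in the eIF4E1b line (744 and 529 genes, or 841 and 228 with scaling by total counts).

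The 2 lines were also compared in the inputs, which did not enter the RIP contrast. Inputs came from the lysates used for RIP, so this comparison is not fully independent of that contrast. Averages of 43.7 ± 7.8 CPM in eIF4E1b inputs and 44.7 ± 11.9 CPM in eIF4E1c inputs (SD, n = 3 each) were measured for ppt2a.3, with a log2 fold change of -0.08 ± 0.22 (SE, 95% confidence interval -0.52 to 0.35, DESeq2 adjusted p = 0.894). Leaving out the second eIF4E1b input library turned this value to 0.05, and leaving out the third eIF4E1c input library to 0.16. ENSDARG00000093176 averaged 61.9 ± 5.0 CPM in eIF4E1b inputs and 40.9 ± 14.7 CPM in eIF4E1c inputs (SD, n = 3 each). The log2 fold change was 0.54 ± 0.24 (SE, interval 0.07 to 1.02), 0.28 without the first and 0.77 without the second eIF4E1c input library, and did not pass the threshold (adjusted p = 0.181, and between 0.0574 and 0.607 over the alternatives). Of 15281 genes tested in the inputs, 0.89% were called higher in the eIF4E1b line and 1.44% in the eIF4E1c line. In whole-embryo lysates, fewer cells with a transcript and less of it per cell cannot be told apart.

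The balance between the 2 copies was also measured. ppt2a.3 made up 41.1%, 38.3% and 37.0% of the counts of both genes in eIF4E1b RIP and 49.0% and 43.2% in eIF4E1c RIP. The shares were 44.1%, 36.3% and 43.3% in eIF4E1b inputs, against 60.1%, 42.1% and 56.5% in eIF4E1c inputs. The Wilson 95% interval of the highest share, in the first eIF4E1c input, was 55.9% to 64.2%. ppt2a.3 had the higher count of the 2 genes only in that library and the third eIF4E1c input. Counts were not corrected for gene length. Over all libraries the share averaged 41.7% ± 4.7 in RIP (SD, n = 5) and 47.1% ± 9.2 in input (SD, n = 6), a difference of -5.33 percentage points (-7.48 to -2.73 without one library). This is a description, since the shares rest on RIP counts of the chosen genes and on the uncertain division of reads between them. Within the eIF4E1b line the difference was -2.42 percentage points and within the eIF4E1c line -6.78. Between a RIP library and the input of the same line and number it ran from -11.1 to 2.03, with both signs present. Which input belongs to the second eIF4E1c RIP library is in doubt, and another pairing would change this range.

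**Figure D2:**
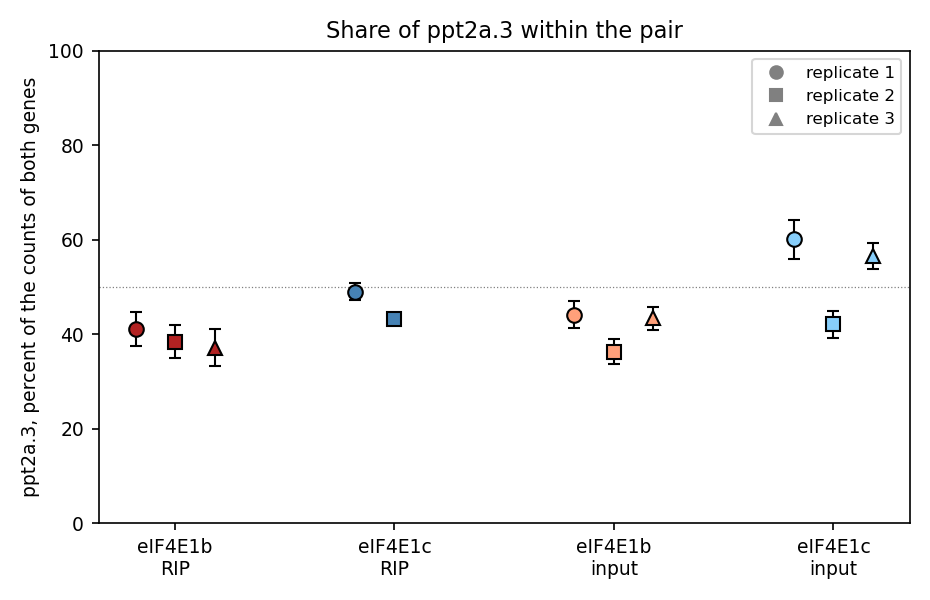
Share of ppt2a.3 in the summed counts of both genes, in percent, for each library of the 4 groups, with Wilson 95% intervals as bars and replicate number as point shape. The dotted line marks equal counts of both genes. The shares run between 36.3% and 60.1%, with the widest spread in the eIF4E1c inputs.

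The gene lists used from here on were chosen with earlier results of these data known. Of the 4 other palmitoyl-protein thioesterase genes tested, PPT1 was called higher in eIF4E1c RIP and none higher in eIF4E1b RIP. The background was 4.51% and 3.44% of all genes tested. A gene that did not pass the threshold was not thereby shown to be equal between the groups. PPT1 had 51.9, 49.9 and 38.1 CPM in eIF4E1b RIP, against 132.4 and 182.0 CPM in eIF4E1c RIP, and its inputs lay between 58.4 and 72.0 CPM in the eIF4E1b line and between 46.2 and 60.3 CPM in the eIF4E1c line. Between the RIP groups its log2 fold change was -1.67 ± 0.38 (SE, DESeq2 adjusted p = 0.000275). The call was lost in 4 of 12 alternatives, with adjusted p-values of up to 0.0154. Among them were leaving out the second (adjusted p = 0.0118) or the third (0.0154) eIF4E1b RIP library, and the quasi-likelihood test of edgeR (0.0146). In its RIP to input ratio PPT1 was also lower in the eIF4E1b line (-1.82 ± 0.30, adjusted p = 1.42e-07, edgeR adjusted p = 0.00273).

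Of the remaining PPT2 genes, ppt2a.5 and ppt2a.1 did not show the pattern of ppt2a.3 and ENSDARG00000093176, and the others were too low to judge. ppt2a.5 (ENSDARG00000068846) had 27.3, 40.2 and 42.2 CPM in eIF4E1b RIP, against 15.4 and 77.6 CPM in eIF4E1c RIP, and 8.1 to 13.1 CPM in the 6 inputs. Its RIP values lay above all of its input values, and the eIF4E1c RIP values lay on both sides of the eIF4E1b ones. Relative to its own input, ppt2a.5 had log2 values of 2.38 ± 0.30 (SE) in the eIF4E1b line and 2.15 ± 0.58 in the eIF4E1c line. The values for ppt2a.1 (ENSDARG00000068840) were 1.2 ± 0.38 and 1.55 ± 0.64 in the same order of lines, at 3.1 to 19.1 CPM. Between the RIP groups the log2 fold change was -0.08 ± 0.56 for ppt2a.5 (adjusted p = 0.948) and 0.16 ± 0.63 for ppt2a.1 (adjusted p = 0.899). The second gene named PPT2, ENSDARG00000104542, stayed at or below 4.1 CPM (0.42 ± 0.88, adjusted p = 0.794), and ppt2a.2 (ENSDARG00000010782) had no count in any library. The intervals behind these errors are wide, and the difference of the 2 chosen genes from their paralogs was not tested. The uncertain division of reads within the family may affect these genes too.

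Of the 9 tested genes of the other enzymes that remove palmitate from proteins, 1 was called higher in eIF4E1c RIP and none higher in eIF4E1b RIP, against 4.51% and 3.44% of all genes tested. LYPLA2, a cytosolic acyl-protein thioesterase, had 5.2, 4.7 and 2.8 CPM in eIF4E1b RIP, against 15.4 and 40.5 CPM in eIF4E1c RIP (-2.57 ± 0.54 SE, adjusted p = 7.54e-05). That call was lost without the third eIF4E1b RIP library (adjusted p = 0.0067) and without the second eIF4E1c RIP library (0.00727), and in 4 of 12 alternatives in all, with adjusted p-values of up to 0.0185 (0.0176 with edgeR). Its paralogs LYPLA1 (-0.09 ± 0.52, adjusted p = 0.936) and lyplal1 (-0.10 ± 1.14, 0.967) did not pass the threshold, nor did the plasma membrane depalmitoylases ABHD17B (-0.74 ± 0.41, 0.197), abhd17c (-0.61 ± 0.44, 0.342) and the 2 ABHD17A genes ENSDARG00000043084 (0.93 ± 0.60, 0.294) and ENSDARG00000091433 (-0.68 ± 0.44, 0.29). For the mitochondrial enzyme ABHD10 the values were -0.90 ± 0.39 (ENSDARG00000058394, adjusted p = 0.0824) and -1.19 ± 0.59 (ENSDARG00000076435, 0.146).

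The neuronal ceroid lipofuscinosis genes, linked in humans to the same group of storage diseases as PPT1, were mostly lower in eIF4E1b RIP by their fitted values. Of 13 tested, 5 were called higher in eIF4E1c RIP (PPT1 included), none was called higher in eIF4E1b RIP (4.51% and 3.44% of all genes tested), and the median log2 fold change was -1.57, against -0.01 over all genes tested. cln3, which encodes a lysosomal membrane protein, had 1.9, 2.6 and 1.9 CPM in eIF4E1b RIP, against 21.5 and 19.0 CPM in eIF4E1c RIP (-3.19 ± 0.57 SE, adjusted p = 2.14e-06). TPP1, a lysosomal tripeptidyl peptidase, had 10.5, 9.5 and 11.6 CPM in eIF4E1b RIP, against 64.7 and 51.3 CPM in eIF4E1c RIP (-2.43 ± 0.47, adjusted p = 1.76e-05). For both genes the 2 RIP groups lay far apart, and cln3 in eIF4E1b RIP was below its inputs of 10.9 to 15.7 CPM. Both calls were lost with edgeR (adjusted p = 0.012 for cln3 and 0.0101 for TPP1).

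The calls for CTSD, the lysosomal protease cathepsin D, and grnb, a progranulin gene, were among the least stable. CTSD had a log2 fold change of -1.57 ± 0.43 (SE, adjusted p = 0.00381) and grnb of -1.49 ± 0.41 (adjusted p = 0.00424). Each was lost in 8 of 12 alternatives, with adjusted p-values of up to 0.0565 for CTSD and 0.0726 for grnb, and leaving out any 1 of the 3 eIF4E1b RIP libraries ended both calls. The other tested members of this list did not pass the threshold, among them cln6a (-2.04 ± 0.64, adjusted p = 0.0126), MFSD8 (-1.92 ± 0.63, 0.0172), CLN8 (-1.29 ± 0.45, 0.0298), ATP13A2 (-1.96 ± 0.70, 0.0318), KCTD7 (-0.43 ± 1.2, 0.849) and the DNAJC5 genes ENSDARG00000004836 (-1.12 ± 0.46, 0.0721) and ENSDARG00000042948 (-0.14 ± 0.39, 0.845). No adjusted p was given for grna, CLN6 and ctsf, whose counts were too low.

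**Figure D3:**
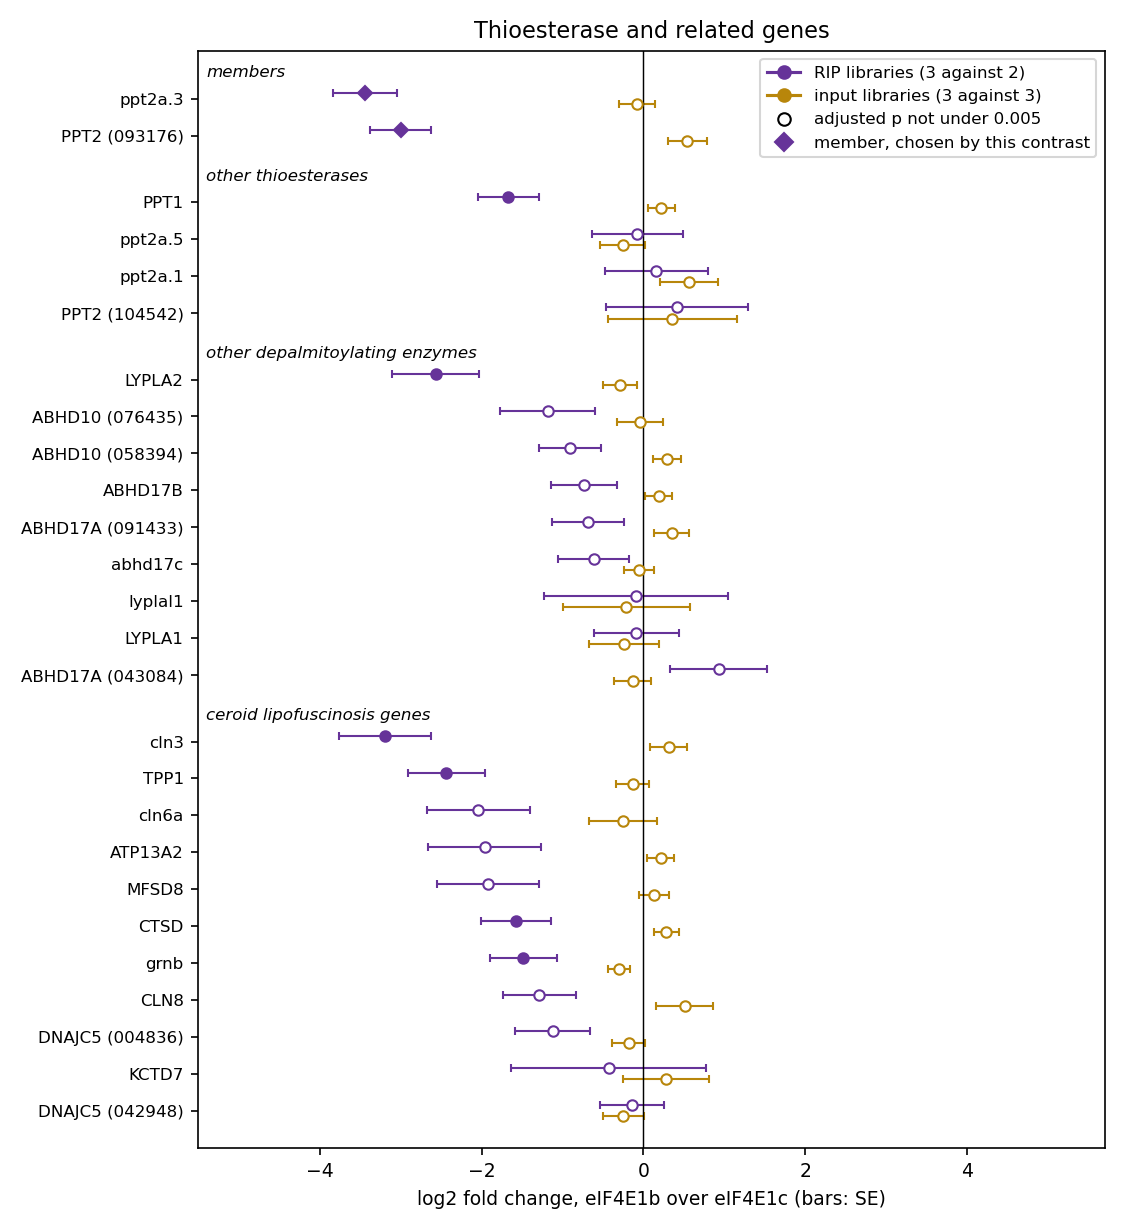
Log2 fold changes of eIF4E1b over eIF4E1c in RIP (purple) and in input (ochre) libraries for the 2 chosen genes and tested genes of 3 lists, with SE as bars. Filled circles passed an adjusted p under 0.005, and diamonds mark the 2 genes chosen by the RIP contrast. In RIP the 2 PPT2 genes, at -3.44 and -3.0, lie near cln3 at -3.19, while no gene shown passed the threshold in the inputs.

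The lists around these enzymes contained further transcripts higher in eIF4E1c RIP, where 4.51% of all genes tested were called. Among 25 tested palmitoyltransferases, which attach palmitate to proteins, 4 were called: ZDHHC4 (-2.39 ± 0.45 SE, adjusted p = 9.45e-06), zdhhc24 (-2.32 ± 0.50, 0.000117), ZDHHC18 (ENSDARG00000105034, -1.72 ± 0.39, 0.000296) and zdhhc21 (-2.35 ± 0.58, 0.00105). Without the first eIF4E1c RIP library the calls of zdhhc24 (-1.48, adjusted p = 0.0164) and zdhhc21 (-1.99, 0.0289) were lost, and without the second or the third eIF4E1b RIP library those of ZDHHC18 (0.0229 and 0.00549) and zdhhc21 (0.0248 and 0.0313). Among 54 soluble lysosomal hydrolases and activators, 9 were called. The 6 with the smallest adjusted p were the fucosidase gene FUCA2 (-3.21 ± 0.52, 1.14e-07), the cathepsin A gene CTSA (-2.51 ± 0.43, 7.86e-07), the cathepsin L gene ctsla (-2.32 ± 0.42, 4.16e-06), TPP1, the ganglioside activator gene GM2A (-2.10 ± 0.43, 5.03e-05) and the carboxypeptidase-like gene CPVL (-2.07 ± 0.48, 0.000373). The CPVL call was lost without the second (adjusted p = 0.00621) or the third (0.0124) eIF4E1b RIP library and without the second eIF4E1c RIP library (-1.40, 0.0171). Of 11 tested genes that sort enzymes to the lysosome, 1 was called, the sortilin gene SORT1 (-2.06 ± 0.55, 0.00279). This call was lost in 6 of 12 alternatives, among them leaving out any 1 of the 3 eIF4E1b RIP libraries (adjusted p = 0.00714 to 0.0377) or the first eIF4E1c RIP library (-1.0, 0.174).

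Counting each gene once, 18 of 111 tested list genes other than the 2 chosen ones were called higher in eIF4E1c RIP and none was called higher in eIF4E1b RIP, read against the background of 4.51% and 3.44% given above. By direction alone, 73.0% of the 111 had negative values, against 50.4% of all genes tested, and the median was -0.62 against -0.01. The lists were chosen with earlier results of these data known. Their counts and medians are therefore a description, and no excess over the background is read from them. For the settings that follow, the share of all genes called is not given here, so these counts have no background. With edgeR 0 list genes were called in either direction (at an unadjusted DESeq2 p under 0.05 there were 40 higher in eIF4E1c RIP and 1 higher in eIF4E1b RIP). Without the second or without the third eIF4E1b RIP library the count was 9. Without the second eIF4E1c RIP library 4 list genes were called higher in eIF4E1b RIP.

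**Figure D4:**
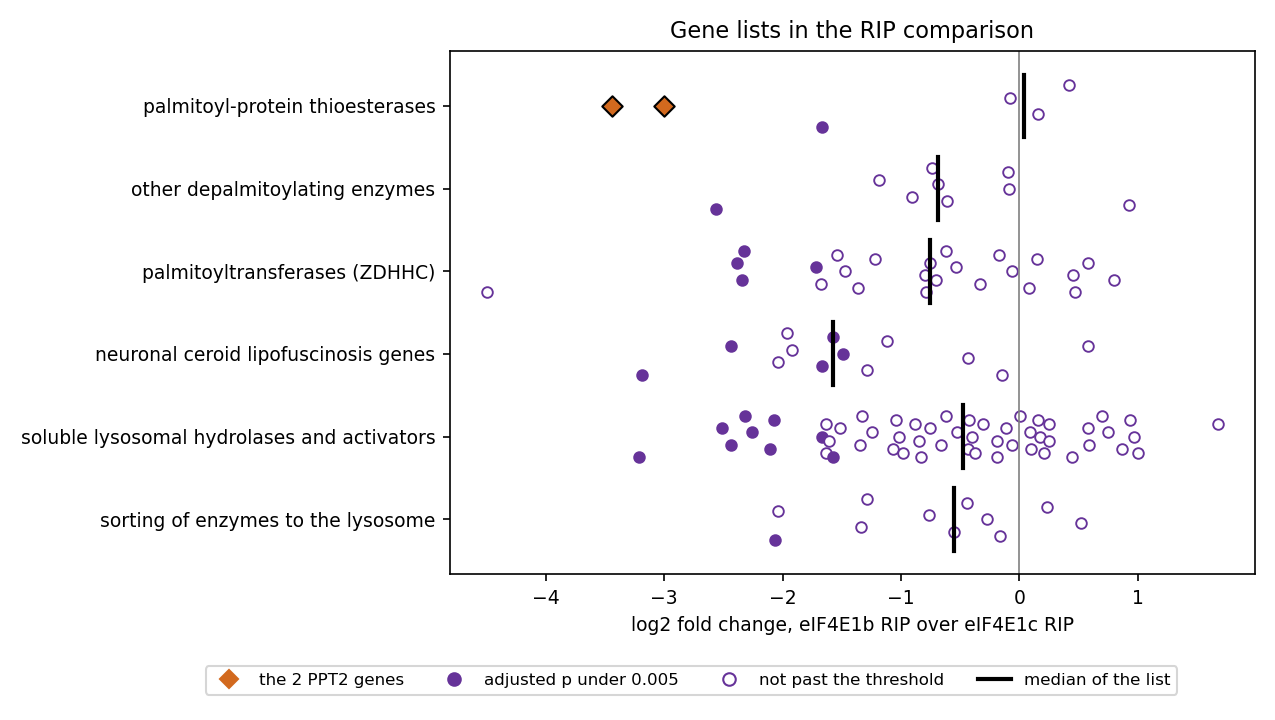
Log2 fold changes of eIF4E1b RIP over eIF4E1c RIP for every tested gene of the 6 lists, with filled points for an adjusted p under 0.005, black bars for the median of each list without the 2 PPT2 genes, and diamonds for those 2 genes. The median is -1.57 for the ceroid lipofuscinosis genes, 0.04 for the other thioesterases and between those values for the rest.

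The RIP to input ratio gave a similar count, although it shares all RIP libraries with the comparison above. Of 111 tested list genes 22 were called higher in the eIF4E1c line and none in the eIF4E1b line, against backgrounds of 5.24% and 3.73%. With edgeR 9 of the 22 were called, and the share of all genes it called is not given here. Without the second eIF4E1c RIP library 6 list genes were called higher in the eIF4E1b line. In this ratio 7 of 13 ceroid lipofuscinosis genes and 5 of 24 palmitoyltransferases were called. As the lists were chosen with earlier results of these data known, these counts are a description too.

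In the inputs 1 of 116 tested list genes was called, near the background of 0.89% called higher in the eIF4E1b line. This was NPC2 (ENSDARG00000090912), which encodes a cholesterol-binding protein of the lysosome. It was higher in eIF4E1b inputs (0.80 ± 0.21 SE, adjusted p = 0.00435), and the call was lost in 9 of 13 alternatives, with adjusted p-values of 0.00171 to 0.284. Leaving out the first or the third eIF4E1b input, or the first or the third eIF4E1c input, each ended it. The median of the 116 was 0.05, against 0.01 over all genes tested.

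The 2 PPT2 genes had similar profiles over the 11 libraries (Pearson's r = 0.93 over log2 of the normalized count plus 1), as both carry the contrast that chose them. Without the first eIF4E1c RIP library r was 0.878, and Spearman's rho over the 11 libraries was 0.70. Of 11406 genes with a mean normalized count of at least 50, 35 resembled ppt2a.3 more closely than ENSDARG00000093176 did, and 45 resembled ENSDARG00000093176 more closely than ppt2a.3 did. The 5 genes most like ppt2a.3 were C20H12orf57 (r = 0.976), golga7 (0.967), which encodes a partner of palmitoyltransferases, RNF185 (0.967), PRMT1 (0.964), a protein arginine methyltransferase, and CCNG1 (0.959), a cyclin. The 5 most like ENSDARG00000093176 were cth1 (0.983), a CCCH zinc finger gene, PPIH (0.983), a cyclophilin of the spliceosome, the ubiquitin-conjugating enzyme genes UBE2D1 (0.978) and ube2d2l (0.976), and NIPA1 (0.972). These correlations describe the same 11 libraries, in which 2 libraries carry most of the contrast.

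**Figure D5:**
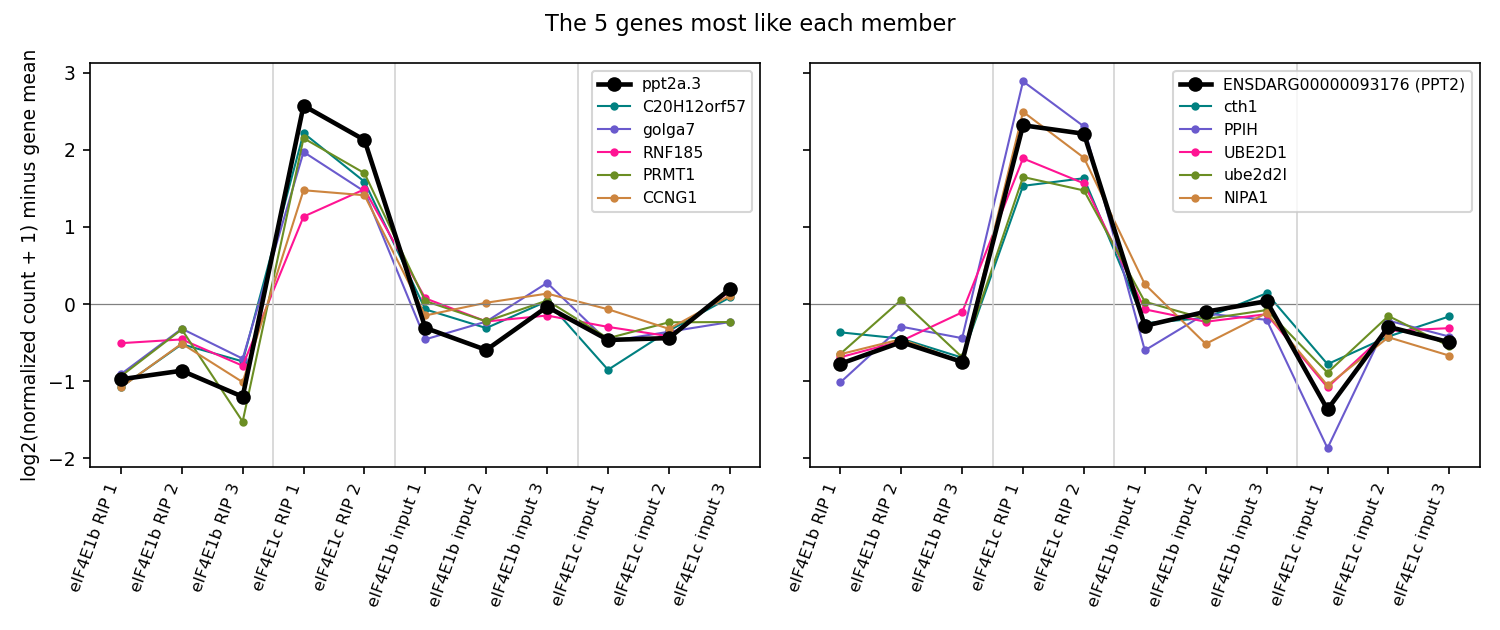
Profiles of ppt2a.3 (left) and ENSDARG00000093176 (right), in black, with the 5 genes most like each, as log2 of the normalized count plus 1 minus the mean of each gene, over the 11 libraries. All 12 lines peak in the 2 eIF4E1c RIP libraries, and the first eIF4E1c input is the lowest library for ENSDARG00000093176.

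Of the genes next to the pair in the RefSeq order, 2 were tested between the RIP groups and neither passed the threshold. bloc1s3 (ENSDARG00000068828) had a log2 fold change between the RIP groups of -0.16 ± 0.52 (SE, adjusted p = 0.877), and 17.3 to 29.6 CPM in the 5 RIP libraries against 2.2 to 4.6 CPM in the 6 inputs. AGFG1 (ENSDARG00000030020) had 0.13 ± 0.68 (adjusted p = 0.928). Its 2 eIF4E1c RIP libraries were far apart, at 2.9 and 24.0 CPM, on both sides of the 16.0, 10.2 and 10.5 CPM in eIF4E1b RIP. sesn3 was too low to be tested there, with 0.30, 0 and 0.21 CPM in eIF4E1b RIP, against 1.15 and 1.21 CPM in eIF4E1c RIP. slc19a3a stayed at or below 1.15 CPM in all libraries, and 2 further neighbours matched no counted gene.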

How the data were processed

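Values deposited by the authors were whole-number read counts per Ensembl gene, 1 file per library, with no normalization. The submitters' processing notes name Trim Galore 0.5.0, Bowtie2 2.3.4.1, featureCounts, Subread 1.6.2, DESeq2 1.18.1, R 3.4.1 and the assembly GRCz11. Which gene annotation was used, whether strand was considered and how reads with several matches were treated is not given in the sources used here. Reads of a gene and of an overlapping gene on the other strand may therefore not be separated.

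Groups came from the sample labels, which call the samples biological replicates. No 2 replicates agreed within sampling noise (chi-square per degree of freedom of 12.1 to 139 over 10 pairs). Counts were tested with the Wald test of DESeq2 1.42.0 in R 4.3.3, using size factors by the median of ratios and calling genes at a Benjamini-Hochberg adjusted p under 0.005 after independent filtering. This was done for the 5 RIP libraries, the 6 input libraries, and the difference in RIP to input ratio over all 11. Both PPT2 genes passed the filtering in every fit. The quasi-likelihood test of edgeR 4.0.16, other scalings and filters, a replicate block, all libraries in one fit and leaving out each library were alternatives. The main fit of each comparison was first tested on simulated data with the same spread set for all genes. The alternatives were not tested in this way. CPM were computed from total counts. Wilson intervals cover counting error only, since PCR copies are counted like separate molecules, and a count of 0 allows up to 3 counts, or 0.432 CPM in the shallowest library. Shares and intervals were computed with scipy 1.17.1 in Python 3.11.15. A planned test of the share between RIP and input is not given, since RIP counts chose the genes.

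Symbols came from a name table covering 29201 of the 32520 identifiers. The 2 genes and the 6 lists (135 other genes) were chosen with earlier results of these data known. Named genes were the 2 PPT2 genes, both tagged genes, tested thioesterase, depalmitoylating and ceroid lipofuscinosis genes, up to 6 called genes of each other list (1 gene covered by this rule is not reported here), the 5 genes most like each PPT2 gene and 3 neighbours on each side. Within the eIF4E1b line, RIP and input libraries of the same number deviated together from their group means (r = 0.46, 0.29 and 0.49), so the numbers pair them. In the eIF4E1c line r was 0.21 and 0.07, the second value under the label's number 2, whereas the deposited file of that RIP library carries the number 3. Which input belongs to it is therefore in doubt. Between the lines the numbers did not pair the libraries.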

Additional observations from a re-analysis of the deposited data

Results flagged for a closer look

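ppt2a.3 and ENSDARG00000093176 moved opposite ways against their own inputs in the 2 lines, down in eIF4E1b RIP and up in eIF4E1c RIP, with differences in log2 ratio of -3.29 and -3.48. These 2 differences were not tested, because the RIP contrast chose both genes. The share of all genes that moved opposite ways was not computed, so nothing is read from the pattern in both. RIP and input libraries also came from different kits.

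Of 111 other list genes tested, 22 differed between the lines in RIP to input ratio (DESeq2 interaction test, adjusted p under 0.005). All 22 were lower in the eIF4E1b line. The lists were chosen with earlier results of these data known, so their counts are a description. Over all 14194 genes tested, 5.24% were called in that direction and 3.73% in the other. The values, as log2 of the eIF4E1b ratio over the eIF4E1c ratio, were as follows. Among enzymes that remove or attach palmitate they were -1.82 for PPT1, -2.21 for LYPLA2, -1.13 for ABHD10 (ENSDARG00000058394), -2.80 for ZDHHC4, -2.63 for zdhhc24, -2.09 for ZDHHC15, and -1.74 and -1.43 for the ZDHHC18 genes ENSDARG00000105034 and ENSDARG00000069807. Among further ceroid lipofuscinosis genes they were -3.43 for cln3, -2.23 for TPP1, -1.79 for CTSD, -1.11 for grnb, -2.13 for ATP13A2 and -1.73 for CLN8. Among other lysosomal hydrolases and activators they were -2.74 for FUCA2, -2.77 for CTSA, -2.51 for ctsla, -1.62 for CTSC, -1.38 for PSAP, -2.25 for NPC2, -2.43 for GM2A and -1.99 for CPVL. The quasi-likelihood test of edgeR called 9 of these 22 genes, and the share of all genes it called is not given here. Of 18 alternatives, 14 ended the call of ABHD10, 13 that of grnb, 11 that of CLN8, 7 that of ZDHHC18 (ENSDARG00000069807) and 6 that of ATP13A2, whose value was -1.28 without the second eIF4E1c RIP library. For each of the other 17 genes at most 1 alternative did so.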

How the results depend on the processing

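Both PPT2 genes kept the sign of their RIP and ratio values in all alternatives run. This gives no support, since the RIP contrast chose both genes and is part of the ratio. In the inputs the log2 value of ppt2a.3 turned from -0.08 to 0.05 without the second eIF4E1b library and to 0.16 without the third eIF4E1c library (range -0.23 to 0.16 over leaving out each library). List genes called higher in eIF4E1c RIP numbered 18, and 0 with edgeR, 6 with the replicate block, 33 with all 11 libraries in one fit and 9 to 17 without one library. Those higher in eIF4E1b RIP numbered 0, and 2 with all 11 libraries and 0 to 4 without one. In the ratio the 22 genes higher in the eIF4E1c line became 9 with edgeR and 17 to 26 without one library, and the 0 genes higher in the eIF4E1b line became 0 to 6 without one. In the inputs the 1 gene higher in the eIF4E1b line became 0 with edgeR, TMM scaling, the count filter, no independent filtering and all 11 libraries, and 0 to 1 without one library, while the 0 genes higher in the eIF4E1c line became 0 to 1. The cause of these changes was not tested, and the share of all genes called in these alternatives is not given here. Scaling by total counts moved the median gene to -0.12 in RIP (-0.01 in the fit reported) and to -0.17 in the ratio (0.08 in the fit reported).

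The likeness of the 2 genes was 0.70 by Spearman's rho, and 0.878 to 0.965 without one library. With the replicate block the log2 values of ENSDARG00000093176 and ppt2a.3 in the inputs were 0.61 and -0.07. A replicate block within each line, which takes the labels' number for the second eIF4E1c RIP library and was added after seeing the data, gave 17 genes higher in the eIF4E1c line in the ratio, and log2 ratios of -3.51 for ppt2a.3 and -3.65 for ENSDARG00000093176. Depth limits ENSDARG00000104542, at no more than 55 counts in a library.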
